A study of Homo sapiens with 12 samples.

Results

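The HOX genes are the 38 genes of the HOXA, HOXB, HOXC and HOXD clusters, taken by symbol from the 26485 genes of the expression tables. A further HOX gene, HOXB13, was left out by the rule, since it lies apart from the rest of its cluster and is treated as a prostate lineage gene. HOXA holds 11 of the 38 genes and HOXB, HOXC and HOXD hold 9 each. RNA sequencing was done on DU145, a human prostate cancer cell line derived from a brain metastasis, in 12 samples of 3 derivatives with 4 replicates each. In all 3 derivatives the ITGA2 gene, which encodes the α2 subunit of a collagen-binding integrin, had been knocked out with CRISPR/Cas9. The cells were kept for 72 hours as spheroids of 8000 cells in RPMI 1640 without serum.

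DU145KO is the knock-out line without further transfection. DU145KO+α2 is the same line stably transfected with α2 cDNA in the pAWneo2 plasmid, and DU145KO+vector carries the pAWneo2 plasmid without an insert. Knock-out cells had been selected by GFP and by sorting out α2 positive cells, and the transfected lines had been selected with geneticin. Transfection with its selection therefore cannot be told apart from the plasmid in any comparison with DU145KO, and each derivative is 1 line. In bulk RNA a lower level can mean fewer cells that express a gene or less RNA per cell, and these cannot be told apart.

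HOX genes encode homeodomain transcription factors that give cells their position along the body axis. In each cluster the genes lie in a fixed order and are all read in the same direction, and the paralog number rises from the 3′ end, whose genes act early and towards the head, to the 5′ end, whose genes act late and towards the tail. HOX proteins bind DNA together with TALE cofactors of the PBX and MEIS families. Polycomb complexes keep silent clusters repressed, Trithorax and COMPASS complexes keep active ones open, and retinoic acid is a well known inducer of the 3′ genes. Adult epithelial cells and tumours derived from them keep a part of this pattern.

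The promoters that bear on the results below come from RefSeq on GRCh38.p14, each covering 250 bases before the gene start and 50 bases after it. A promoter sequence was at hand for 20 of the 38 genes. HOXA3 is shown as a gene that was higher in DU145KO+α2 in both comparisons, HOXC5 because HOXC4 has the identical promoter entry, HOXD8 as the gene with counts almost only in DU145KO, and HOXD4 as a HOXD gene without expression. Capitals mark TAAT or its reverse complement ATTA, the core of the homeodomain binding motif. The HOXA3 window is chr7:27152534-27152833 on the minus strand, the HOXC5 window chr12:54016638-54016937 on the plus strand, the HOXD8 window chr2:176129455-176129754 on the plus strand and the HOXD4 window chr2:176151300-176151599 on the plus strand.
HOXA3: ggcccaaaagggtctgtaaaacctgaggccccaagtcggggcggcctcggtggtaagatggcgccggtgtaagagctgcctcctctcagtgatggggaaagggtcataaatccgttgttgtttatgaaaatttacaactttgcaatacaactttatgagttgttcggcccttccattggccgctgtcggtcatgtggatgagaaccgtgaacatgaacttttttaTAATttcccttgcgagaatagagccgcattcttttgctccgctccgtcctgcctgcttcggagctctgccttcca
HOXC5: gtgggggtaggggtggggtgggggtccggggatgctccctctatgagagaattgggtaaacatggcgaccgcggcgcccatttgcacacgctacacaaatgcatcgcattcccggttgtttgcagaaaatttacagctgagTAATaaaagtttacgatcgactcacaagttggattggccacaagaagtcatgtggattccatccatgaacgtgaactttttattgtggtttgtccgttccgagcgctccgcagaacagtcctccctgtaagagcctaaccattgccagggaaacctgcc
HOXD8: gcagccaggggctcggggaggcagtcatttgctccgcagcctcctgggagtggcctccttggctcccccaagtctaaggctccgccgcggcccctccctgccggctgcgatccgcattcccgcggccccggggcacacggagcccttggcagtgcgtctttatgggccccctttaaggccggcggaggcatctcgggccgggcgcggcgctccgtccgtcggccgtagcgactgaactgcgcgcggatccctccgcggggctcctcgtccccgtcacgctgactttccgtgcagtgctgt
HOXD4: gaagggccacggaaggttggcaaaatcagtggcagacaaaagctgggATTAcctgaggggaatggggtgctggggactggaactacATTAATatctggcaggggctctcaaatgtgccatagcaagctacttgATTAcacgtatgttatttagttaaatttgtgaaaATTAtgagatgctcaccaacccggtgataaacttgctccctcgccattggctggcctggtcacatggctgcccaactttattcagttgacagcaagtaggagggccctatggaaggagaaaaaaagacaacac

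HOXA3 and HOXC5 had the motif at 1 place each, HOXD4 at 5 places (counted on both strands, with an overlapping pair counted as 2), and HOXD8 at none. The motif was present in 15 of the 20 HOX promoters (75%), compared to 51.0% of 27305 promoters of the same length. HOX promoters were rich in CpG dinucleotides, the sites of DNA methylation, with a median of 22.5 CpG per promoter and an observed-to-expected ratio of 0.869. The medians of all promoters were 14 CpG and 0.580, at a GC content of 58.3% that was close to the 58.0% of the HOX promoters. HOXD4 stood at the low end with 4 CpG and HOXD8 near the high end with 34, although both were at or close to 0 in the transfected lines. The 10 HOX promoters of genes that passed the filter on low counts had a median of 18 CpG and the 10 others a median of 23.5, with ranges that overlapped. These are descriptions of letters in the windows and say nothing of binding.

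ITGA2 followed the labels. It was measured at 15.7 to 25.8 CPM (counts scaled to the library size after TMM normalisation) in DU145KO, at 13.02 to 20.3 CPM in DU145KO+vector and at 259 to 332 CPM in DU145KO+α2. The log2 fold change was 4.11 ± 0.16 (SE) compared to DU145KO+vector (edgeR adjusted p = 3.15e-09). Total counts were 13948734 to 19988111 per sample. At these depths a count of 3, the limit set by a count of 0, corresponds to 0.150 to 0.215 CPM, which covers counting error only. Epithelial markers were present in all samples, with summed levels of 1984 to 2506 CPM in DU145KO, 1805 to 2099 CPM in DU145KO+vector and 1456 to 1877 CPM in DU145KO+α2, and all 9 were tested. Compared to DU145KO, 5 of the 9 were lower in DU145KO+α2 (fold change −3.65 on the log2 scale for the splicing factor ESRP1, −1.57 for CLDN7, −1.14 for EPCAM and −1.13 for E-cadherin, CDH1) and 4 of 9 were lower in DU145KO+vector. Of all genes tested 5.08% and 1.84% were lower in these comparisons. In DU145KO+α2 compared to DU145KO+vector 1 marker was higher (CLDN4) and 2 were lower (CDH1 and CLDN7), where 5.96% and 5.95% of all genes were. CLDN4 was at 158 to 201 CPM in DU145KO+α2, within the range of DU145KO (129 to 217 CPM), and at 57.7 to 107 CPM in DU145KO+vector. In a model that also held the replicate number (the block) KRT8 and KRT18 were also lower than in DU145KO+vector (4 in all, with 13.7% of all genes lower). KRT8 was added to the markers lower in DU145KO+α2 than in DU145KO (6 in all, with 12.4% of all genes lower). The part of this shift in the HOX results was not tested. Markers of other cell types were low, with summed levels of at most 15.9 CPM for 8 stromal and 4.04 CPM for 5 endothelial markers, and the 53.3 to 86.5 CPM of 7 immune markers came mostly from CD68. In DU145KO+α2 compared to DU145KO+vector PDGFRB was lower (log2 fold change −1.47) and KDR was higher (1.14). PDGFRB was at 0.0999 to 0.354 CPM in DU145KO+α2, near the limit of 3 counts, and overlapped with DU145KO+vector (0.345 to 0.758 CPM). KDR in DU145KO+α2 did not differ detectably from DU145KO (log2 fold change 0.05, edgeR adjusted p = 0.943). The lowest KDR levels were those of DU145KO+vector (0.575 to 1.29 CPM). PTPRC and CD3E had at most 1 count in any sample.

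HOX genes were expressed along most of 3 of the 4 clusters, whereas in HOXD expression was largely confined to HOXD1 and HOXD9. Levels between genes are given as RPKM, in which the read count is divided by gene length and sequencing depth. After the filter on low counts 26 of the 38 genes could be tested, which were 9 of 11 in HOXA, 7 of 9 in HOXB, 8 of 9 in HOXC and 2 of 9 in HOXD. A count was found in every sample for 29 genes. The summed level of the HOXB genes was the highest, with 56.3 ± 3.14 RPKM (SD, n = 4) in DU145KO, 59.2 ± 3.88 in DU145KO+vector and 62.0 ± 4.64 in DU145KO+α2. HOXA came next with 31.9 ± 5.16, 30.3 ± 1.74 and 39.4 ± 4.30 RPKM in the same order, and HOXC followed with 29.1 ± 1.90, 26.7 ± 0.610 and 35.0 ± 2.07 RPKM. HOXD summed to only 3.47 ± 0.438, 2.49 ± 0.586 and 2.55 ± 0.189 RPKM. The ranges of HOXA and HOXC overlapped in DU145KO and in DU145KO+α2, so their order is not separated there. The median level of the 26 tested HOX genes was 3.46 RPKM, below the 8.11 RPKM of all 14732 genes tested, and HOXB7, the highest of them, was above 77.1% of these genes.

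**Figure D1:**
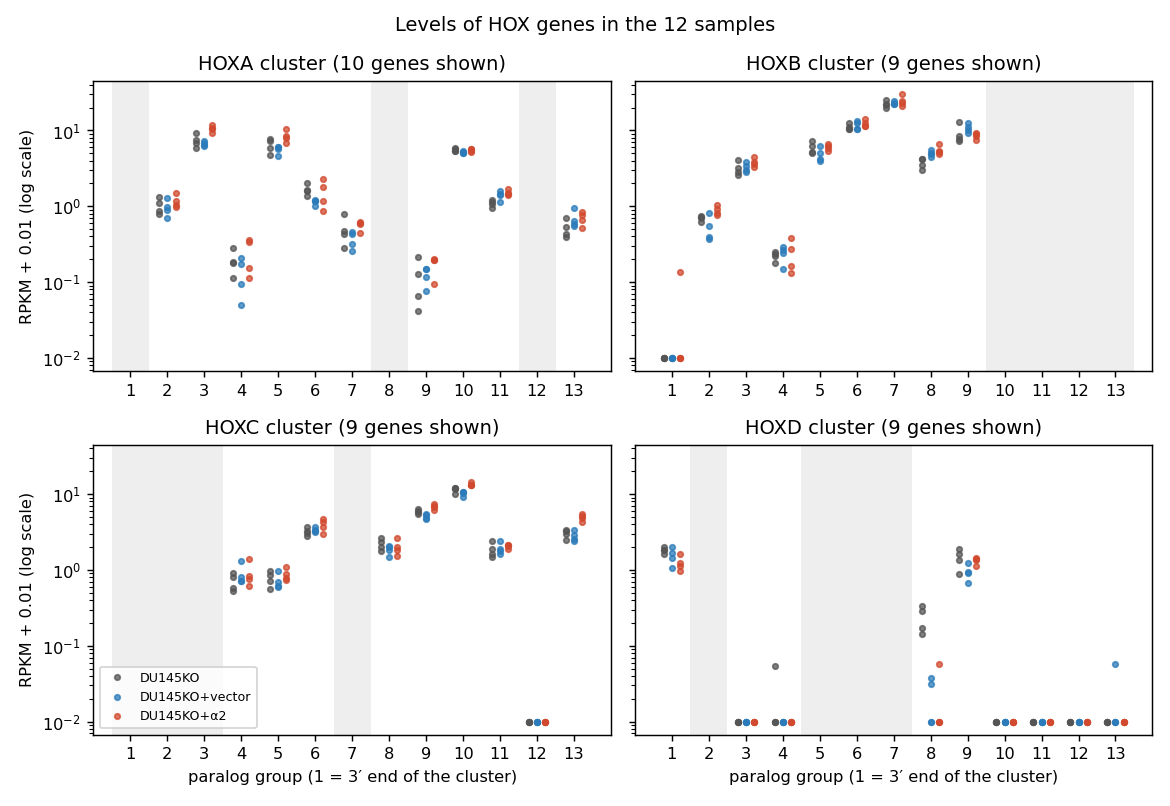
Levels of 37 HOX genes in the 12 samples, as RPKM plus 0.01 on a log axis, against the paralog group, where 1 is the 3′ end of the cluster and grey marks a group that is not shown or that the cluster lacks. Each point is a sample, coloured by line. HOXB7 lies highest at 19.7 to 30.04 RPKM, HOXA4 and HOXB4 lie at or below 0.373 RPKM between neighbours at much higher levels, and 6 of the 9 HOXD genes are at or near 0. HOXA9 lies at or below 0.205 RPKM, far below HOXA10 and closer to HOXA7 (0.250 to 0.777 RPKM).

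The HOXB cluster lies at chr17:48528526-48626358 on GRCh38, and its highest levels were in the middle of the cluster. HOXB1 had 2 counts in 1 sample and none in the others. HOXB2 was measured at 0.359 to 1.02 RPKM and HOXB3 at 2.56 to 4.47 RPKM over the 12 samples. HOXB4, between HOXB3 and HOXB5, was at only 0.123 to 0.373 RPKM, and HOXB5 was at 3.91 to 7.17 RPKM. HOXB6 (10.3 to 14.2 RPKM) and HOXB7 (19.7 to 30.04 RPKM) were the highest pair, and no sample of HOXB6 reached the lowest sample of HOXB7. HOXB8 (2.96 to 6.69 RPKM) was lower again, and HOXB9, the last gene before the gap to HOXB13, was at 7.35 to 12.8 RPKM. On the same strand HOXB3, HOXB4 and HOXB6 share 6.4%, 2.2% and 16.6% of their exon bases with other HOXB genes. A further overlap is that 16.3% of those of HOXB6 lie opposite HOXB-AS3, so the separate values of these genes are uncertain.

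The HOXA cluster lies on chromosome 7 and alternated between high and low genes. HOXA3 (5.83 to 11.9 RPKM), HOXA5 (4.61 to 10.4 RPKM) and HOXA10 (5.00 to 5.79 RPKM) were high genes. HOXA2 (0.690 to 1.49 RPKM), HOXA6 (0.863 to 2.28 RPKM), HOXA7 (0.250 to 0.777 RPKM), HOXA11 (0.932 to 1.67 RPKM) and HOXA13 (0.384 to 0.931 RPKM) were lower. HOXA4 (0.0396 to 0.348 RPKM) and HOXA9 (0.0321 to 0.205 RPKM) were the lowest, each beside genes at several times its level. Neighbours in the order of level were often not separated, since the ranges of HOXA3 and HOXA5 overlapped. HOXA9 and HOXA10 lie wholly inside the interval of the readthrough gene HOXA10-HOXA9 (chr7:27162438-27180239), which was listed at 0 counts in all 12 samples. How reads in exons shared by several genes were counted is not given in the sources used here, so the low level of HOXA9 is uncertain.

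The HOXC cluster lies at chr12:53938831-54056030 and had its peak at HOXC10. HOXC10 was measured at 9.18 to 14.4 RPKM, followed by HOXC9 (4.62 to 7.39 RPKM), HOXC13 (2.41 to 5.53 RPKM) and HOXC6 (2.80 to 4.67 RPKM). HOXC8 (1.47 to 2.64 RPKM) and HOXC11 (1.48 to 2.37 RPKM) did not differ beyond their spread. HOXC4 (0.519 to 1.40 RPKM) and HOXC5 (0.555 to 1.10 RPKM) overlapped as well, and HOXC12, between the expressed HOXC11 and HOXC13, had no count in any sample. HOXC4, HOXC5 and HOXC6 start at the same position in RefSeq and HOXC4 and HOXC6 share 17.5% and 16.1% of their exon bases with other HOXC genes on the same strand, so their separate values are uncertain.

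In the HOXD cluster (chr2:176087487-176190907) only HOXD1, at the 3′ end, and HOXD9 passed the filter on low counts. HOXD1 was measured at 0.955 to 2.004 RPKM and HOXD9 at 0.653 to 1.89 RPKM, and these ranges overlapped. HOXD3, HOXD10, HOXD11 and HOXD12 had no count in any sample, HOXD4 had 1 count in 1 sample and HOXD13 had 2 counts in 1 sample. Together with HOXB1 and HOXC12, these make 8 genes that never exceeded 3 counts, so their expression was not detectable at this depth. The other 4 untested genes, HOXA4, HOXA9, HOXB4 and HOXD8, exceeded 3 counts in a sample.

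The first comparison asked how the HOX genes differed between the line with α2 returned and its vector control. DU145KO+α2 was compared to DU145KO+vector, which was transfected with the plasmid without the α2 insert. No further line of either kind was sequenced. Whether a difference was a response to α2 or a difference between the lines was therefore not tested. Of the 26 tested HOX genes 5 were higher in DU145KO+α2 (19.2%) at an adjusted p below 0.05 and none was lower, compared to 5.96% higher and 5.95% lower of all 14732 genes tested. These were HOXA3, HOXA5, HOXC9, HOXC10 and HOXC13, all from HOXA and HOXC. None of the 5 had a fold change above 2, a size that 2.21% of all genes reached together with the adjusted p. The median log2 fold change of the 26 genes was 0.22, compared to −0.01 for all genes, and 24 of the 26 were above 0, compared to 48.5% of all genes. The groups did not overlap for the same 5 HOX genes (19.2%), and this was the case for 17.2% of all genes. The p-values measure the spread between the replicate samples of a line.

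HOXA3 (chr7:27107010-27152583), an anterior HOX gene required for the pharyngeal organs, was at 37.1, 36.7, 32.0 and 41.8 CPM in the 4 samples of DU145KO+α2 and at 22.2, 25.0, 22.03 and 24.2 CPM in DU145KO+vector. In DU145KO it was at 23.8, 26.7, 20.7 and 32.1 CPM. All DU145KO+α2 samples were above all DU145KO+vector samples, and the log2 fold change was 0.66 ± 0.12 (SE, edgeR adjusted p = 0.00172). Of the exon bases of HOXA3 17.3% lie opposite those of HOXA-AS2 and HOXA-AS3. HOXA-AS2 had 86 to 209 counts, so its reads may not be fully separated from those of HOXA3. HOXA5 (chr7:27141052-27143681), the gene most studied in lung and breast epithelium, was at 13.8, 12.99, 11.5 and 17.3 CPM in DU145KO+α2 and at 10.03, 10.1, 7.71 and 9.505 CPM in DU145KO+vector. Here the groups were also apart, with a log2 fold change of 0.57 ± 0.16 (SE, edgeR adjusted p = 0.0261), but the call rested on single samples. It was lost without DU145KO+α2 replicate 1 (adjusted p = 0.0509) or replicate 4 (0.0945) and without DU145KO+vector replicate 3 (0.0905) or replicate 4 (0.0541).

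HOXC13 (chr12:53938831-53946544), a regulator of hair and nail keratins at the 5′ end of the cluster, had the largest log2 fold change of the 26 genes. It was at 12.3, 11.7, 10.3 and 13.4 CPM in DU145KO+α2 and at 7.98, 6.18, 5.81 and 6.96 CPM in DU145KO+vector. The log2 fold change was 0.82 ± 0.14 (SE, edgeR adjusted p = 0.00101), a 1.77-fold difference, and the groups were well apart. Of its exon bases 7.3% lie opposite those of HOXC13-AS, which had at most 11 counts in any sample. HOXC10 (chr12:53985146-53990279), which belongs to the posterior HOX genes that pattern the lumbar region, was at 25.3, 25.8, 25.9 and 28.5 CPM compared to 20.7, 20.04, 18.1 and 21.2 CPM. Its log2 fold change of 0.40 ± 0.09 (SE, edgeR adjusted p = 0.00581) was small but larger than the spread between replicates. HOXC9 (chr12:54000161-54003337) was at 11.2, 10.8, 9.45 and 10.6 CPM compared to 7.32, 8.33, 8.34 and 7.16 CPM, a log2 fold change of 0.43 ± 0.11 (SE, edgeR adjusted p = 0.0157). Its call was lost without DU145KO+vector replicate 4 (adjusted p = 0.0511), and 9.8% of its exon bases lie opposite those of HOXC-AS2. On the same strand 4.4% are shared with HOXC6. In DU145KO HOXC9 was at 9.73, 8.61, 9.22 and 9.37 CPM, which overlapped with DU145KO+α2. The log2 fold change in DU145KO+α2 compared to DU145KO was 0.19 and did not pass (edgeR adjusted p = 0.347, with the block 0.221).

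**Figure D2:**
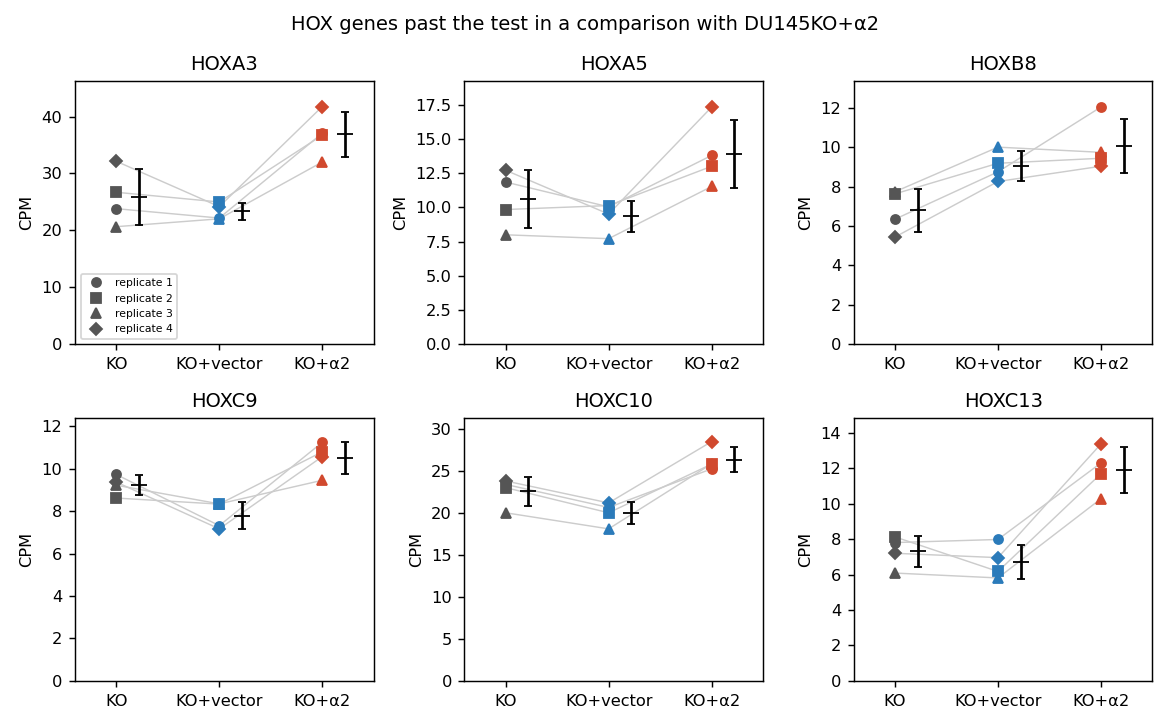
Levels in CPM of the 6 HOX genes that passed the test in a comparison with DU145KO+α2, in the 3 lines (KO is DU145KO). Points are samples, grey lines join samples with the same replicate number, and the black bar gives the mean and SD of 4 samples. For HOXA3, HOXA5, HOXC9, HOXC10 and HOXC13 all DU145KO+α2 samples lie above all DU145KO+vector samples, whereas for HOXB8 both transfected lines lie above DU145KO.

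The other 21 tested HOX genes had log2 fold changes from −0.33 (HOXB9) to 0.71 (HOXB2). When replicate number was added to the model as a block, 6 HOX genes were higher and 1 was lower in DU145KO+α2, compared to 12.9% and 13.7% of all genes. The genes added were HOXB2, a hindbrain gene, with a log2 fold change of 0.74 (blocked edgeR adjusted p = 0.0379, unblocked 0.0929) and HOXB9 with −0.32 (blocked 0.0101, unblocked 0.224). HOXB2 was at 1.61, 1.30, 1.24 and 1.46 CPM in DU145KO+α2 and at 1.27, 0.574, 0.863 and 0.620 CPM in DU145KO+vector, where replicate 1 stood above the other 3 and overlapped with DU145KO+α2. Without that sample the log2 fold change was 1.01 and the unblocked adjusted p was 0.0250. HOXB9 was at 22.4, 24.4, 25.3 and 20.1 CPM compared to 24.7, 29.5, 33.9 and 27.5 CPM, which overlap unless the samples are paired. By cluster, all 9 tested HOXA genes and all 8 tested HOXC genes were above 0, with medians of 0.27 and 0.26 on the log2 scale. HOXB had 6 of 7 above 0 with a median of 0.15, and HOXD had 1 of 2. The signs of HOXA13, HOXB7, HOXC4 and HOXC8 were not stable, since they turned when single samples were left out. By position, 1 of 7 tested genes of paralog groups 1 to 4, 1 of 10 of groups 5 to 8 and 3 of 9 of groups 9 to 13 were higher, compared to 5.96% of all genes. The median log2 fold changes were 0.22, 0.26 and 0.11 in the same order, so groups 9 to 13 had the most calls and the lowest median.

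**Figure D3:**
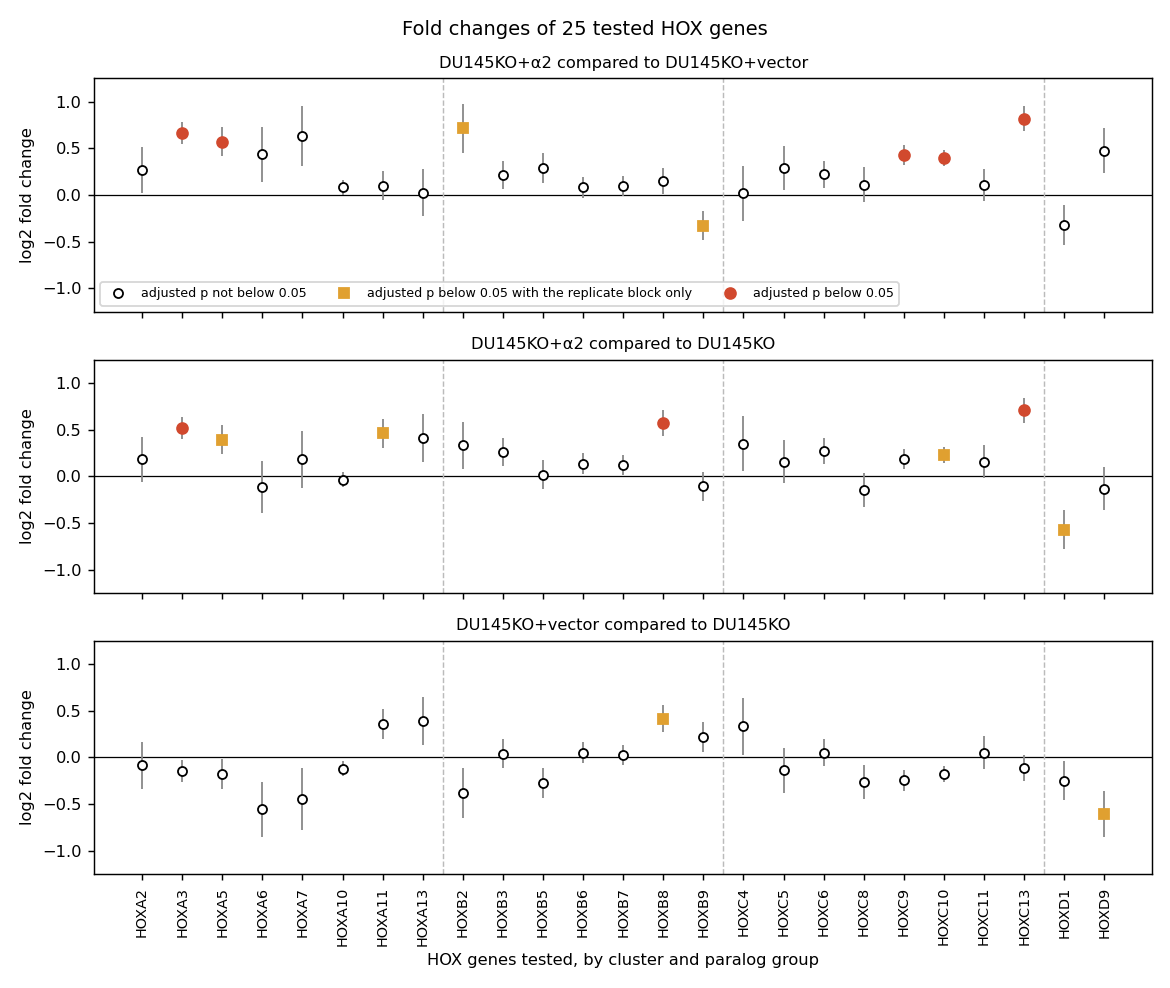
Log2 fold change of 25 of the 26 tested HOX genes in the 3 comparisons, ordered by cluster and paralog group, with dashed lines between clusters. Points are edgeR estimates without the block, bars are 1 SE, red circles mark genes past the test, and yellow squares mark genes past it only with the replicate block. For DU145KO+α2 compared to DU145KO+vector HOXB9 (−0.33) and HOXD1 (−0.32) lie below 0 and the other genes shown lie above it.

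The second comparison set DU145KO+α2 against DU145KO, with the same DU145KO+α2 samples, so it does not stand as an independent repeat. In it 3 of 26 HOX genes were higher (11.5%) and none was lower, compared to 3.09% higher and 5.08% lower of all genes. Again no HOX gene combined the adjusted p with a fold change above 2, which 2.1% of all genes did. The median log2 fold change was 0.19 and 20 of the 26 genes were above 0, compared to 49.2% of all genes. The groups did not overlap for 6 HOX genes, 5 higher and 1 lower (23.1%), and for 12.9% of all genes.

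The genes that passed were HOXA3, HOXB8 and HOXC13. HOXC13 was at 7.81, 8.13, 6.09 and 7.20 CPM in DU145KO, all below the DU145KO+α2 samples, with a log2 fold change of 0.70 ± 0.14 (SE, edgeR adjusted p = 0.00373). HOXA3 had a log2 fold change of 0.51 ± 0.12 (SE, edgeR adjusted p = 0.0121), although DU145KO replicate 4 was level with the lowest DU145KO+α2 sample. HOXB8 (chr17:48612346-48615292), whose forced expression is used to immortalise myeloid progenitors, was at 12.05, 9.45, 9.75 and 9.04 CPM in DU145KO+α2 and at 6.35, 7.64, 7.745 and 5.45 CPM in DU145KO. This gave a log2 fold change of 0.57 ± 0.14 (SE, edgeR adjusted p = 0.0179), and its call was lost without DU145KO replicate 4 (adjusted p = 0.0501) or DU145KO+α2 replicate 1 (0.0579). HOXB8 was also at 8.76, 9.19, 10.01 and 8.27 CPM in DU145KO+vector, and its log2 fold change in DU145KO+α2 compared to that line was 0.15 without passing the test.

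With the block 6 HOX genes were higher and 1 was lower in DU145KO+α2 than in DU145KO, compared to 9.93% and 12.4% of all genes. HOXA5 (log2 fold change 0.39, blocked edgeR adjusted p = 0.00667), HOXA11 (0.46, 0.0351) and HOXC10 (0.23, 0.0241) were added as higher and HOXD1 (−0.57, 0.0373) as lower, whereas the unblocked adjusted p-values were 0.154, 0.0886, 0.130 and 0.120. HOXA11, which patterns limb and uterus, was at 3.79, 3.998, 3.72 and 4.46 CPM in DU145KO+α2 compared to 2.98, 2.51, 3.26 and 2.87 CPM in DU145KO. In DU145KO+vector it was at 4.16, 3.02, 3.80 and 3.86 CPM, a range that overlapped with DU145KO+α2 and DU145KO. Of the exon bases of HOXA11 27.2% lie opposite those of HOXA11-AS.

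The third comparison, DU145KO+vector against DU145KO, sets a line transfected and selected without α2 against the untransfected line, again with 1 line each. None of the 26 HOX genes passed the edgeR test, and neither voom nor DESeq2 called any. An unadjusted p below 0.05 was found for 4 of them (2 higher and 2 lower), and the share of all genes at that threshold is not given here. At an adjusted p below 0.05, 0.496% of all genes were higher and 1.84% lower, and 0.835% combined the adjusted p with a fold change above 2. The median log2 fold change of the HOX genes was −0.12, with 11 genes above and 15 below 0. The groups did not overlap for 4 HOX genes (15.4%), namely HOXB8, which was higher, and HOXA6, HOXA10 and HOXC9, which were lower, and for 8.75% of all genes. With the block HOXB8 was higher (log2 fold change 0.42, blocked edgeR adjusted p = 0.0260, unblocked 0.151) and HOXD9 was lower (−0.61, 0.0390, unblocked 0.238), compared to 5.59% and 7.85% of all genes. The log2 fold changes of HOXA6 (−0.55), HOXA10 (−0.12) and HOXC9 (−0.25) did not pass either test.

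HOXD1, HOXD8, HOXD9 and HAGLR of the HOXD cluster had their highest mean in DU145KO. HOXD8 (chr2:176129705-176132695), a gene of the trunk region, had 13, 12, 7 and 6 counts in DU145KO, which is 0.860, 0.733, 0.430 and 0.351 CPM. It had 0, 1, 1 and 0 counts in DU145KO+vector and 0, 0, 0 and 2 counts in DU145KO+α2, so all 8 transfected samples were at or below the limit of 3 counts. The summed counts per normalised library were 20.1 times higher in DU145KO than in DU145KO+α2 (95% exact Poisson interval 5.21 to 172) and 18.7 times higher than in DU145KO+vector (4.84 to 160), where the intervals cover counting error only. HOXD8 did not pass the filter on low counts. Without the filter its edgeR adjusted p was 0.00157 in DU145KO+α2 and 0.00591 in DU145KO+vector compared to DU145KO. DESeq2 gave 0.00571 for the former and no adjusted p for the latter. Of its exon bases 24.4% lie opposite those of HOXD-AS2, which had at most 1 count in any sample.

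HOXD1 (chr2:176188668-176190907) was at 3.64, 3.60, 3.26 and 3.92 CPM in DU145KO, at 3.93, 3.30, 2.07 and 2.82 CPM in DU145KO+vector and at 1.86, 2.20, 2.42 and 3.25 CPM in DU145KO+α2. All DU145KO+α2 samples were below all DU145KO samples, with 3.25 and 3.26 CPM at the closest pair, and DU145KO+vector spanned both. HOXD9 (chr2:176122719-176124937) was at 3.57, 2.57, 3.07 and 1.64 CPM in DU145KO, 2.27, 1.72, 1.78 and 1.24 CPM in DU145KO+vector and 2.55, 2.65, 2.54 and 2.101 CPM in DU145KO+α2. In every line replicate 4 was the lowest, and with these replicates paired DU145KO+vector was below DU145KO in 4 of 4. HAGLR, the long noncoding RNA that starts next to HOXD1 on the opposite strand, was far more abundant than the HOXD genes in CPM. It was at 25.3, 25.2, 20.8 and 23.3 CPM in DU145KO, 26.2, 20.8, 19.2 and 15.2 CPM in DU145KO+vector and 16.5, 14.4, 15.0 and 16.9 CPM in DU145KO+α2. It was lower in DU145KO+α2 than in DU145KO, with a log2 fold change of −0.59 ± 0.13 (SE, edgeR adjusted p = 0.0110), and not past the test compared to DU145KO+vector (−0.38 ± 0.13, 0.0856, with the block 0.0147). HAGLR overlaps 7.7% of the exon bases of HOXD1 on the opposite strand. The library kit marks strand, but the strand setting of the counting is not given in the sources used here, so reads of the pair may not be fully separated.

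**Figure D4:**
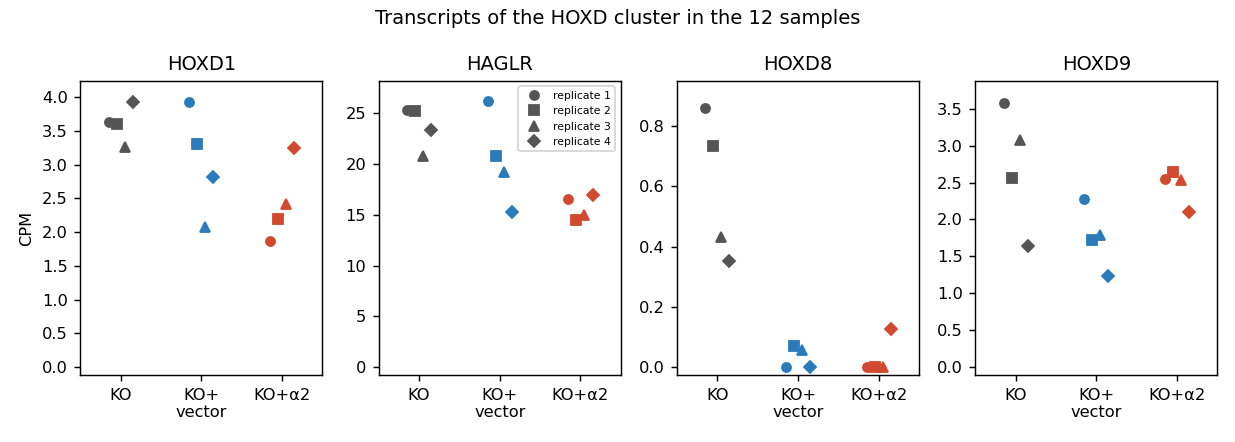
Levels in CPM of HOXD1, HAGLR, HOXD8 and HOXD9 in the 12 samples, with 1 axis per gene and a marker for each replicate number (KO is DU145KO). HOXD8 lies at 0.351 to 0.860 CPM in DU145KO and at 0 to 0.127 CPM in the other lines, and HAGLR lies at 14.4 to 16.9 CPM in DU145KO+α2 compared to 20.8 to 25.3 CPM in DU145KO.

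The remaining untested genes with over 3 counts in a sample did not differ detectably. HOXA4 had 7, 3, 5 and 5 counts in DU145KO, 5, 2, 6 and 1 in DU145KO+vector and 4, 12, 3 and 9 in DU145KO+α2. HOXA9 had 1, 4, 7 and 2, then 4, 4, 5 and 2, and 6, 8, 3 and 6 counts in the same order of lines. HOXB4 had 7, 8, 7 and 6, then 5, 8, 9 and 7, and 5, 5, 9 and 12 counts. The interval of the ratio between lines included 1 for all 3 genes in all 3 comparisons, and the widest in relative terms reached from 0.411 to 2.04 for HOXA9 in DU145KO over DU145KO+vector, so differences of that size cannot be seen at these counts.

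Genes that are not HOX genes but lie inside the clusters showed the same unequal levels. Of 22 such genes 9 passed the filter, all of them noncoding RNAs, and the microRNA genes had at most 2 counts, in libraries made from mRNA. HOTAIR, an antisense RNA between HOXC11 and HOXC12 that is studied for its link to Polycomb, was at 6.88, 6.17, 6.95 and 7.26 CPM in DU145KO, 6.10, 4.67, 5.12 and 6.06 CPM in DU145KO+vector and 7.51, 7.35, 7.33 and 7.07 CPM in DU145KO+α2. It was higher in DU145KO+α2 than in DU145KO+vector with a log2 fold change of 0.41 ± 0.12 (SE, edgeR adjusted p = 0.0403). DU145KO lay between the other lines, with 1 of its 4 samples inside the range of DU145KO+α2 and the other 3 below it. HOXC-AS1, beside HOXC9, had a log2 fold change of 0.45 ± 0.16 (SE) and passed only with the block (edgeR adjusted p = 0.0842, with the block 0.0348). HOTAIRM1, a noncoding RNA of the HOXA cluster, was at 0.28 ± 0.13 (0.178, with the block 0.0178), and in DU145KO+α2 compared to DU145KO at 0.26 (0.260, with the block 0.0421). HOXA-AS2, HOXA10-AS, HOXA11-AS, HOXB-AS1 and HOXC-AS3 did not pass in any comparison.

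The first tested genes outside the clusters were mostly level. On the HOXA side SKAP2, an adaptor protein gene 228.4 kb before the cluster, was at 444, 313, 317 and 314 CPM in DU145KO+α2 and at 289, 223, 197 and 270 CPM in DU145KO+vector. The log2 fold change was 0.50 ± 0.15 (SE, edgeR adjusted p = 0.0398). Compared to DU145KO it was 0.43 and passed only with the block (adjusted p = 0.100, with the block 0.000147). HIBADH, 325.4 kb after the HOXA cluster, had a log2 fold change of −0.11 in DU145KO+α2 compared to DU145KO+vector. The neighbours of HOXB, SKAP1 (0.10) and CALCOCO2 (−0.05), the gene before HOXC, CALCOCO1 (0.02), and the neighbours of HOXD, KIAA1715 (0.01) and MTX2 (−0.09), did not pass in that comparison. FLJ12825, which starts 2.2 kb after the HOXC cluster, was at 0.186 to 0.591 CPM in DU145KO+α2 and at 0.610 to 1.38 CPM in DU145KO+vector. Its log2 fold change was −1.10 ± 0.36 (SE, edgeR adjusted p = 0.0613, with the block 0.0128), opposite in sign to HOXC9, HOXC10 and HOXC13. These counts are low, and DU145KO+α2 replicate 1 was at the floor of 3 counts (0.186 CPM).

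The cofactors of HOX proteins and the general regulators of HOX clusters were read from lists. Of the 9 TALE cofactor genes 8 were tested, and in DU145KO+α2 1 was higher and 1 lower compared to each of the other lines. Of all genes 5.96% were higher and 5.95% lower compared to DU145KO+vector, and 3.09% and 5.08% compared to DU145KO. PBX3, the lower one, is named here after its values were seen. PBX3 was at 56.0, 52.9, 51.2 and 60.4 CPM in DU145KO+α2, at 88.1, 93.8, 103 and 103 CPM in DU145KO+vector and at 66.0, 61.8, 69.2 and 75.4 CPM in DU145KO. DU145KO+α2 had less of it than DU145KO+vector (log2 fold change −0.82 ± 0.08, edgeR adjusted p = 2.01e-05) and DU145KO (−0.31 ± 0.08, 0.0298), and DU145KO+vector had more of it than DU145KO (0.51 ± 0.08, 0.00317). With the block MEIS2 was also higher in DU145KO+vector than in DU145KO (log2 fold change 0.30, blocked edgeR adjusted p = 0.0415, unblocked 0.294). The median log2 fold change of the 8 genes was 0.06, 0.04 and 0.04 in the 3 comparisons, so the list as a whole lay close to the median of all genes.

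Few Polycomb and Trithorax genes passed the test without the block, and more did with it, as was the case over all genes. Without the block 5.96% of all genes were higher and 5.95% lower in DU145KO+α2 compared to DU145KO+vector. In DU145KO+α2 compared to DU145KO these shares were 3.09% and 5.08%, and in DU145KO+vector compared to DU145KO 0.496% and 1.84%. With the block they were 12.9% and 13.7%, 9.93% and 12.4%, and 5.59% and 7.85% in the same order. All 28 Polycomb genes were tested, and in DU145KO+α2 compared to DU145KO+vector PCGF3 was higher (0.43 ± 0.07 on the log2 scale, edgeR adjusted p = 0.000558) and EED, a core subunit of the complex that methylates lysine 27 of histone H3, was lower (−0.34 ± 0.10, 0.0421). None passed in DU145KO+α2 compared to DU145KO, and PCGF3 alone was lower in DU145KO+vector than in DU145KO (−0.29 ± 0.07, 0.0312). With the block DU145KO+α2 compared to DU145KO+vector gave 4 higher Polycomb genes and 1 lower. Compared to DU145KO 6 were higher and none was lower in DU145KO+α2, among them JARID2 (log2 fold change 0.23, blocked edgeR adjusted p = 0.0086), which recruits the H3 lysine 27 methylase, CBX2 (0.56, 0.0192) and BMI1 (0.48, 0.0294). In DU145KO+vector 5 were higher and 1 was lower than in DU145KO, and CBX2 (0.56, blocked edgeR adjusted p = 0.0307) and BMI1 (0.61, 0.0103) were again among the higher ones. The Trithorax and COMPASS list of 17 genes also holds other chromatin regulators, such as CTCF and DOT1L. Of these 17 genes ASH2L was higher in DU145KO+α2 compared to DU145KO+vector (0.39 ± 0.06, edgeR adjusted p = 0.000887) and DU145KO (0.34 ± 0.06, 0.00324), and WDR5 was lower compared to DU145KO+vector (−0.29 ± 0.08, 0.0232). ASH2L and WDR5 are both core subunits of the enzymes that methylate lysine 4 of histone H3. With the block 4 of the 17 were higher and 2 lower compared to DU145KO+vector, 2 were higher and 1 (WDR5) lower compared to DU145KO, and none passed in DU145KO+vector compared to DU145KO. The Polycomb, Trithorax and COMPASS genes and MEIS2 are named after their values were seen. The medians of the lists lay between −0.02 and 0.10 on the log2 scale in all 3 comparisons.

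Retinoic acid genes had the largest differences among these lists, in both directions. Of 21 genes 12 were tested. In DU145KO+α2 compared to DU145KO+vector 3 were higher and 3 lower, where 5.96% and 5.95% of all genes were. ALDH1A2, which makes retinoic acid, was at 3.66, 2.499, 2.60 and 2.16 CPM in DU145KO+α2 and at 0.554, 0.359, 0.920 and 0.620 CPM in DU145KO+vector, a log2 fold change of 2.12 ± 0.35 (SE, edgeR adjusted p = 0.000873). ALDH1A3, which catalyses the same step and was far more abundant, was at 183, 270, 154 and 135 CPM compared to 313, 526, 465 and 345 CPM, a log2 fold change of −1.15 ± 0.23 (0.00738). RDH10, which oxidises retinol, was higher (0.92 ± 0.18, 0.00553), as was the receptor gene RARA (0.30 ± 0.08, 0.0270), and RXRA, its partner, was lower (−0.36 ± 0.07, 0.00194), and these 3 are named after their values were seen. Compared to DU145KO the log2 fold changes were 1.70 for ALDH1A2, −1.10 for ALDH1A3 and 0.74 for RDH10, all past the test. With the block 3 were higher and 3 lower compared to DU145KO, in place of 2 and 2. Of all genes 9.93% were higher and 12.4% lower with the block, in place of 3.09% and 5.08%. None of the 12 passed in DU145KO+vector compared to DU145KO without the block, whereas with it 1 was higher (RXRA, log2 fold change 0.21, blocked edgeR adjusted p = 0.0161) and 3 were lower, among them RARA (−0.27, 0.0144). In this comparison 5.59% of all genes were higher and 7.85% lower with the block. The median of the 12 genes was 0.09, −0.03 and −0.17 in the 3 comparisons. Retinoic acid was not measured, and the part of these genes in the HOX levels was not tested.

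**Figure D5:**
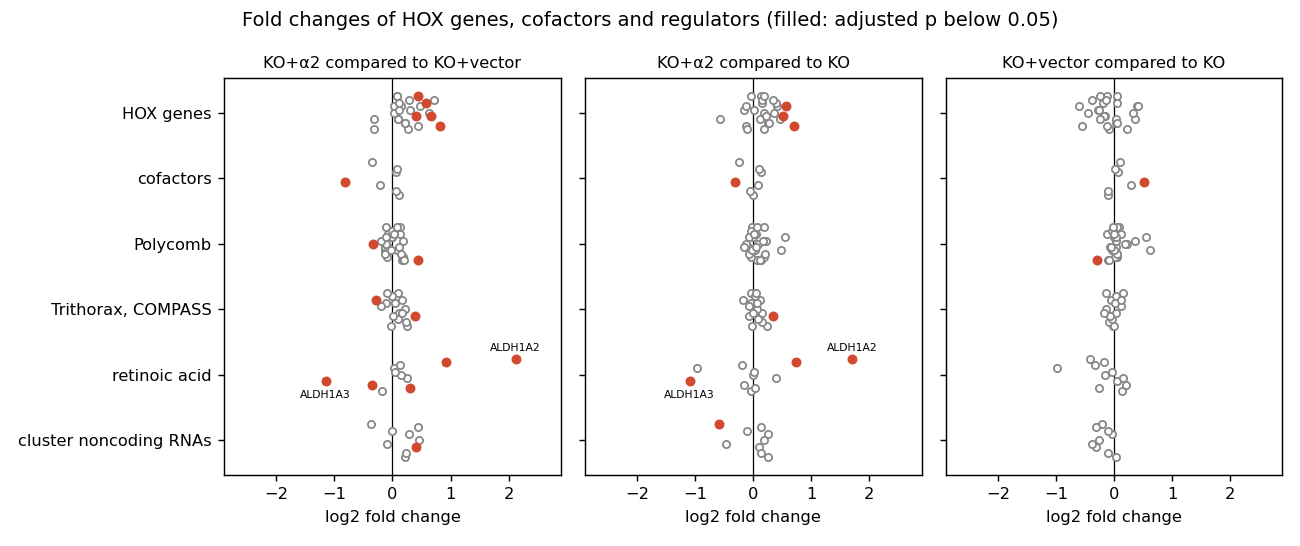
Log2 fold changes of the tested HOX genes and of the genes of 5 lists in the 3 comparisons (KO is DU145KO), where each circle is a gene, a few genes of the lists are not shown, and filled circles have an edgeR adjusted p below 0.05. The filled HOX genes lie between 0.40 and 0.82 in the first panel, and the widest spread there is that of the retinoic acid genes, from −1.15 to 2.12.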

How the data were processed

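RNA from spheroids of the 3 DU145 derivatives, with 4 biological replicates each, was sequenced from stranded mRNA libraries. Per the labels, bcl2fastq 1.8.4, TopHat2 2.1.0 and Subread 1.5.0 were used with hg38. The authors deposited raw read counts per gene, and RPKM values that they made from the counts after TMM normalization. The strand setting and the treatment of reads shared by several genes are not given in the sources used here.

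Tests on the deposited counts were run with edgeR 4.0.16 in R 4.3.3 (robust quasi-likelihood F-test, TMM), over all 12 samples in 1 model with line as the factor. The filterByExpr function with a minimum count of 10 left 14732 genes. P-values were two-sided and adjusted by the Benjamini-Hochberg method over all of them. SE values were derived from the fold change and its F statistic. The counts table gave the CPM values, and levels between genes used the deposited RPKM. No 2 replicates of the same line were within sampling noise of each other (chi-square per degree of freedom 7.39 to 25.4). A count of 3 was used as the floor for single samples. The model was tested on simulated data.

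Replicate numbers come from the labels. Deviations from the line means correlated between samples with the same number by 0.135 to 0.554 in every pair, compared to −0.29 to 0.149 between different numbers (means of −0.133 to −0.120 for each pair of lines), so the numbers were taken to pair the samples, and the model with the replicate number as a block is given beside results whose call or count it changed. Alternatives were DESeq2 1.42.0 (Wald test and size factors), voom with limma 3.58.1, library size alone, no filter or at least 10 counts in every sample, the compared lines only, and leaving out single samples.

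The HOX genes, the lists and the rule for named genes were chosen with earlier results of these data known. The rule names all HOX genes, ITGA2, genes inside the clusters, the first tested gene on each side, and genes of the lists past the test with a fold change above 2. Positions are from RefSeq on GRCh38, exon overlaps from GENCODE, and promoters from RefSeq on GRCh38.p14. Some genes counted in the totals are not reported here. All value columns of the tables could be mapped to a sample.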

Additional observations from a re-analysis of the deposited data

Results flagged for a closer look

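Each HOX gene was examined for a sample that stands apart from the other 3 of its line, by the gap to the nearest sample divided by the range of the 4. Of 90 groups examined, 3 had a ratio above the 95% critical value of Dixon's test for 4 samples, and chance alone gives about 4.5. HOXA9 in DU145KO+α2 had a ratio of 0.878, with replicate 3 at 0.177 CPM and the others at 0.373 to 0.400 CPM. HOXC4 in DU145KO+vector had a ratio of 0.851, with replicate 3 at 3.05 CPM and the others at 1.65 to 1.86 CPM. HOXD8 in DU145KO+α2 had a ratio of 1, since replicate 4 was at 0.127 CPM, from 2 counts, and the others were at 0.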

How the results depend on the processing

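Leaving out 1 sample at a time gave 3 to 6 HOX genes past the test when DU145KO+α2 was compared to DU145KO+vector (lowest without DU145KO+vector replicate 4, which ended the calls of HOXA5 and HOXC9, and highest without DU145KO+vector replicate 1), 2 to 3 in DU145KO+α2 compared to DU145KO and 0 in DU145KO+vector compared to DU145KO. HOXA3 and HOXC13 in both comparisons and HOXC10 compared to DU145KO+vector passed under every sample left out. With the replicate block the counts were 7, 7 and 2 in place of 5, 3 and 0, and no call was lost. With a fold change above 2 in addition the counts were 0 in all 3 comparisons. Without the filter on low counts HOXD8 was added, giving 4 genes compared to DU145KO and 1 in DU145KO+vector, since more genes enter the test. In the 5 lists the block gave 23, 19 and 12 genes in place of 13, 8 and 2, and with 1 sample left out the last count was 1 to 3. Over all genes the block gave 3911, 3286 and 1980 in place of 1754, 1203 and 344. The causes were not tested. The sign of HOXC4 in DU145KO+α2 compared to DU145KO+vector turned with voom (−0.020, otherwise 0.019). Signs also turned with 1 sample left out for values that never passed the test. In DU145KO+vector compared to DU145KO these ranged over HOXA2 −0.28 to 0.065, HOXB3 −0.053 to 0.18, HOXB6 −0.019 to 0.12, HOXB7 −0.026 to 0.096, HOXC11 −0.061 to 0.20 and HOXC6 −0.0072 to 0.12. In DU145KO+α2 compared to DU145KO they were HOXA10 −0.06 to 0.0009, HOXA6 −0.36 to 0.077, HOXA7 −0.013 to 0.52, HOXB5 −0.044 to 0.13, HOXB9 −0.19 to 0.11 and HOXD9 −0.31 to 0.038, and compared to DU145KO+vector HOXA13 −0.064 to 0.24, HOXB7 −0.018 to 0.17, HOXC4 −0.28 to 0.28 and HOXC8 −0.038 to 0.22. The other normalizations, tests and filters changed no other sign or call among the 75 log2 fold changes. Depth limits the HOXD genes and HOXA4, HOXA9 and HOXB4, whose counts allow only large differences to be seen.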
